A study of Mus musculus with 6 samples.

Results

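The transcripts of the mitochondrial genome were described in RNA pulled down from mouse neural progenitor cells. They were taken as every gene in the count table whose symbol starts with mt-, which gave 37 of 55416 gene IDs: 2 ribosomal RNAs, 13 protein-coding genes and 22 transfer RNAs. The cells came from embryonic brain and were kept quiescent in FGF2 (10 ng/ml) and Bmp4 (20 ng/ml). The EU group received 5-ethynyluridine, a uridine analogue that is built into new RNA, at 250 µM 1 day after quiescence was induced, and the PBS group received vehicle instead. RNA was isolated on day 8 from both groups, EU-containing RNA was coupled to biotin and captured on streptavidin beads, and the PBS samples went through the same steps to measure background binding. Genomic DNA was digested with DNase I beforehand, and a total RNA kit was used for the libraries. Each group had 3 libraries, and the sources used here give no strain, sex or age of the donor embryos.

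The mitochondrial genome is a small circle that is transcribed on both strands into long precursor RNAs. The ribosomal and protein-coding sequences are mostly separated by transfer RNAs, whose removal releases them. Its proteins are core subunits of respiratory chain complexes I, III and IV and of ATP synthase, and its ribosomal and transfer RNAs serve the ribosomes inside mitochondria. Parts of the mitochondrial genome have also been inserted into nuclear chromosomes during evolution, and some of these nuclear copies are almost identical to their source.

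Such copies bear on the results, so their sequence is shown first. The first 60 bases of mt-Co2 (cytochrome c oxidase subunit 2) are given with both annotated nuclear copies, in which capitals mark a difference from mt-Co2. Gm28661 is annotated on chromosome 1 and Gm13341 on chromosome 2, and all sequences here are GENCODE M21 transcripts, read 5′ to 3′.
mt-Co2: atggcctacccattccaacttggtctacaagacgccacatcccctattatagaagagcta
Gm28661: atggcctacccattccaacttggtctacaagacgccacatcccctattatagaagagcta
Gm13341: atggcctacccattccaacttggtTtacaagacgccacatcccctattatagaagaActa
Gm28661 matched mt-Co2 over 681 bases without a mismatch, and Gm13341 matched it over 684 aligned bases with 16 mismatches and 1 gap. For mt-Nd4 (a complex I subunit) the match ended inside the gene: the nuclear copy Gm28439 is identical to its first 876 bases, and the bases past its end are in capitals.
mt-Nd4 across the end of its copy: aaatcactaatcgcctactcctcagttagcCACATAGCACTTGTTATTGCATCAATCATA

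Of the 13 protein-coding genes, 5 were covered over at least 90% of their length by nuclear transcripts of at least 98% identity. These were mt-Co2, mt-Atp6, mt-Co3, mt-Nd3 and mt-Nd4l, which lie in 1 stretch of the genome together with mt-Atp8. For mt-Atp8 no annotated copy of at least 100 bases was found. Its last 43 bases overlap mt-Atp6, however, and lie within the stretch of mt-Atp6 that is identical to the nuclear copy Gm10925. The gene mt-Nd4, next in order, was covered over 63.6% and mt-Co1, on the other side, over 31.3% of its length. The remaining 5 (mt-Nd1, mt-Nd2, mt-Nd5, mt-Nd6 and mt-Cytb) and both ribosomal RNAs had no match at that identity. In all, 11 nuclear gene models in the table matched a member over at least 100 bases at 95% identity or more. Reads from identical stretches cannot be assigned to one locus, and the sources used here do not say how such reads were counted. The counts of covered members and of the copies are therefore uncertain.

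The EU libraries held 9564856 to 26479031 counts and the PBS libraries 413181 to 729649. CPM below is the count scaled to library size and to TMM factors, which correct for composition, and 3 counts were equal to 0.105 to 0.377 CPM at EU depth but 3.84 to 6.33 CPM at PBS depth. Neural progenitor markers summed to 5032 to 6310.0 CPM in EU and 5535 to 5968 CPM in PBS, with 9 of 9 detected. Most of this was Slc1a3, with means of 3206 CPM in EU and 3255 in PBS. Nes (means 72.6 and 36.9 CPM) and Notch1 (741 and 493) were higher in every EU library, and the groups overlapped in the other progenitor markers. Hes1 had 3 counts in PBS replicate 2 and none in the other PBS libraries. Astrocyte markers, 5 of 5 detected, summed to 2479 to 5473 CPM in EU and 4874 to 11440.2 CPM in PBS. Of these, Gfap (means 344 CPM in EU and 3600 in PBS) and Aqp4 (662 and 1387) were higher in PBS. The means of Aldh1l1, S100b and Slc1a2 were higher in EU, with overlapping groups. Neuron markers summed to 519.5 to 626 CPM in EU and 541 to 597 CPM in PBS. Nearly all of this was Map2, with means of 567 and 554 CPM. Among the other neuron markers the highest means were 7.44 CPM in EU (Syt1) and 9.66 CPM in PBS (Tubb3), and Snap25 had no PBS count. Of the microglia markers 4 of 5 were at 0 in every library. In libraries made from pulled-down RNA, a share does not tell fewer cells or less RNA per cell from weaker capture.

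Mitochondrial transcripts took 10.2%, 6.91% and 8.69% of the counts in EU replicates 1 to 3 and 6.48%, 5.58% and 6.89% in PBS replicates 1 to 3. The groups were just apart, with EU replicate 2 and PBS replicate 3 almost equal (8.61% ± 1.67 and 6.32% ± 0.672, SD, n = 3; exact two-sided permutation p = 0.1, the smallest that 3 against 3 libraries allow; adjusted over 8 summed measures 0.133). With TMM-scaled CPM, or with the most abundant gene of the table taken out of the totals, the groups overlapped (exact permutation p = 0.3 in each). The 13 protein-coding genes together held nearly the same share in both groups, 4.30% ± 0.0503 in EU and 4.39% ± 0.314 in PBS (n = 3, SD; exact permutation p = 0.9). The 2 ribosomal RNAs held 5.92%, 2.67% and 4.35% in EU and 2.22%, 1.42% and 2.14% in PBS, so that every EU library lay above every PBS library. Counting error was small beside this spread, with 95% Wilson intervals of the shares no wider than 0.0700 percentage points to either side. It was not small beside the gap in the total share, where the interval of PBS replicate 3 (6.83% to 6.95%) included the value of EU replicate 2.

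**Figure D1:**
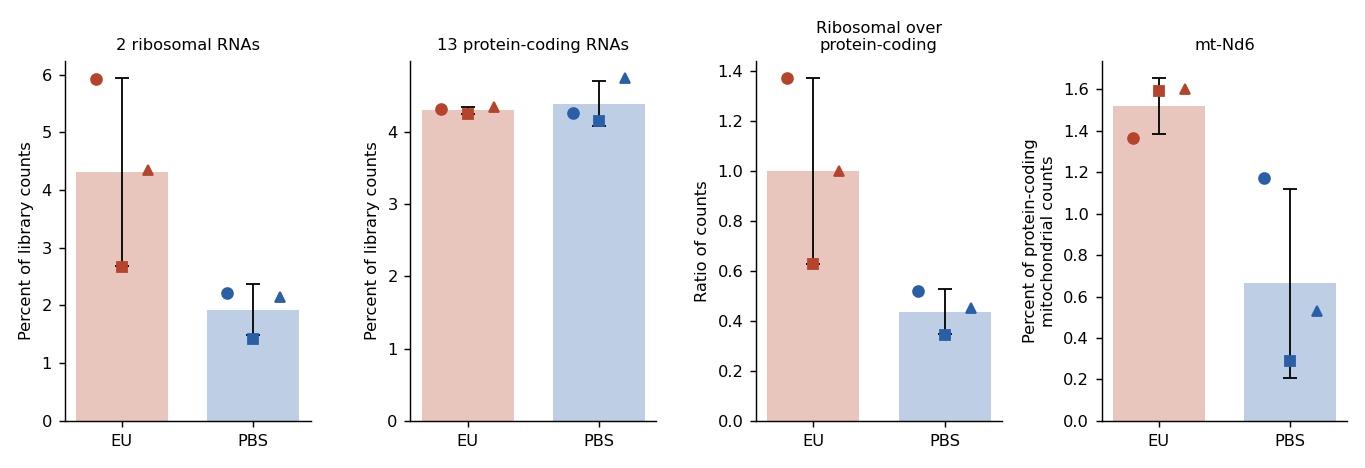
Share of library counts held by the 2 ribosomal and the 13 protein-coding mitochondrial RNAs (percent), the ratio of their counts, and the share of mt-Nd6 in protein-coding mitochondrial counts (percent). Bars are means, error bars SD over 3 libraries, points single libraries (circle, square and triangle for replicates 1 to 3); the ribosomal ratio is 1.37, 0.629 and 1.002 in EU and at most 0.520 in PBS.

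Single members differed in direction between the EU and PBS pulldowns. Both ribosomal RNAs, mt-Nd1, mt-Co1 and mt-Nd6 were higher in every EU library than in any PBS library, 6 protein-coding members of low abundance were lower, and mt-Nd2, mt-Nd4, mt-Nd5 and mt-Cytb overlapped. None passed the test over all genes. In edgeR's quasi-likelihood test 19 of 37 members passed the low-count filter, namely the 15 ribosomal and protein-coding genes and 4 transfer RNAs, and 0 had an adjusted p below 0.05, where 0.0240% of 12477 tested genes did. At an unadjusted p below 0.05, 9 of the 15 longer members passed, 6 of them lower in EU, against 17.2% of all tested genes in either direction and 4.26% lower. DESeq2 called 2 members higher (mt-Rnr1 and mt-Tl1) and 6 lower (mt-Co2, mt-Atp8, mt-Atp6, mt-Co3, mt-Nd3 and mt-Nd4l), against 4.06% and 3.51% of all tested genes. Of the 6 lower, mt-Nd3 and mt-Nd4l passed the low-count filter through their PBS libraries, so their tests do not support a difference. Limma-voom called mt-Tl1 higher and mt-Atp6 lower (1.78% and 0.200%). The groups did not overlap in 11 of the 15 longer members, 5 higher and 6 lower in EU, which held for 21.8% and 6.40% of all tested genes. The median log2 fold of the 15, EU over PBS, was 0.02, and that of all tested genes 0.15. The median lies between sets of members on opposite sides of 0.

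Both ribosomal RNAs made up more of the EU than of the PBS libraries. The small-subunit RNA mt-Rnr1 (ENSMUSG00000064337) had 306821, 396779 and 594349 counts in EU replicates 1 to 3 and 7583, 3022 and 8448 in PBS replicates 1 to 3. In CPM this was 38548, 13897 and 27261 in EU and 11969, 6379.6 and 10801 in PBS. EU replicate 1 was highest, and the lowest EU library, replicate 2, lay just above PBS replicate 1. The log2 fold was 1.45 ± 0.42 (SE; edgeR adjusted p = 0.107). The large-subunit RNA mt-Rnr2 (ENSMUSG00000064339) measured 32642, 10832 and 19634 CPM in EU and 10694, 6025 and 9200.1 CPM in PBS, and its log2 fold was 1.28 ± 0.43 (SE; edgeR adjusted p = 0.152). Here too the groups were apart by a narrow margin, set by EU replicate 2.

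The ratio of ribosomal to protein-coding mitochondrial counts does not depend on scaling to nuclear genes. It was 1.37, 0.629 and 1.002 in EU and 0.520, 0.342 and 0.452 in PBS, a ratio of means of 2.29 (1.001 ± 0.372 and 0.438 ± 0.0896, SD, n = 3; exact permutation p = 0.1, adjusted 0.133). Leaving out single libraries gave 1.86 to 2.71. Per kilobase, mt-Rnr1 was the more abundant of the pair, at 1.96, 2.13 and 2.30 times the level of mt-Rnr2 in EU and 1.85, 1.75 and 1.94 times in PBS. Its mean was also the highest per kilobase in both groups, at 27821 ± 12922 CPM per kilobase in EU and 10174 ± 3087 in PBS (SD, n = 3), where mt-Cytb, at 8291 ± 736, lay within its spread.

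**Figure D2:**
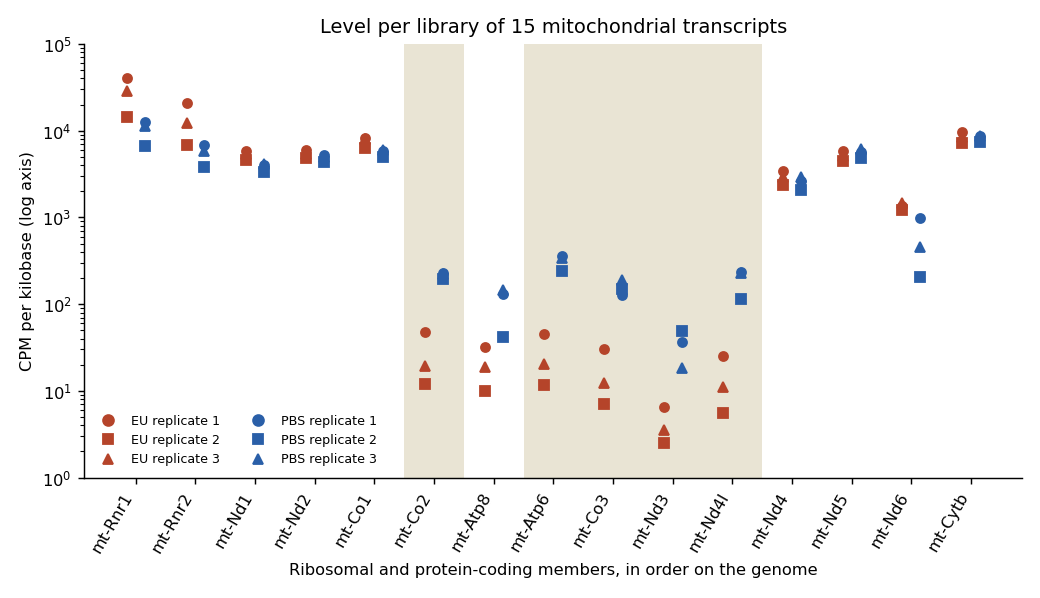
Level per kilobase (CPM per kb, log axis) of the 15 ribosomal and protein-coding members in each library, in their order on the genome; shading marks the 5 members covered by a near-identical nuclear copy over at least 90% of their length. The members from mt-Co2 to mt-Nd4l lie far below their neighbours, and there the PBS libraries are above the EU libraries.

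Among the protein-coding genes, 6 were abundant, over 1000 CPM in every library, and showed small differences. They are mt-Nd1, mt-Nd2, mt-Nd4 and mt-Nd5 of complex I, mt-Cytb, the cytochrome b of complex III, and mt-Co1, the catalytic subunit of cytochrome c oxidase (complex IV). The level of mt-Co1 (ENSMUSG00000064351) was 12803, 9707 and 12294 CPM in EU and 9109, 7743 and 9176 CPM in PBS. All 3 EU libraries were higher, and the log2 fold was 0.42 ± 0.23 (SE; edgeR adjusted p = 0.437). For mt-Nd1 (ENSMUSG00000064341) the values were 5622, 4384 and 5099 CPM in EU and 3845, 3213 and 3930.1 CPM in PBS. These groups did not overlap either (log2 fold 0.46; edgeR adjusted p = 0.332), and the log2 folds of both genes turned to -0.18 and -0.14 when scaled to the mitochondrial counts, which lowered the median of all tested genes to -0.40.

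In the other 4 abundant members the groups overlapped. The values of mt-Cytb (ENSMUSG00000064370) were 10968, 8233 and 9709 CPM in EU and 10016, 8514 and 9924 CPM in PBS, and the log2 fold was 0.02 ± 0.23 (SE; edgeR adjusted p = 0.981). Those of mt-Nd5 (ENSMUSG00000064367) were 10732, 8110.3 and 9300.5 CPM in EU and 10424, 8729 and 11218 CPM in PBS, and the log2 fold was -0.11 ± 0.24 (SE; edgeR adjusted p = 0.887). For both, the sign of the fold changed with the scaling, the filter or the libraries used. The log2 folds of mt-Nd2 and mt-Nd4 were 0.14 ± 0.21 and 0.20 ± 0.24 (SE; edgeR adjusted p = 0.822 and 0.772), and turned to -0.45 and -0.41 under that scaling.

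Levels per kilobase of full length put mt-Cytb first among the protein-coding genes in both groups, at 8424 ± 1197 in EU and 8291 ± 736 CPM per kilobase in PBS (SD, n = 3). It was followed in EU by mt-Co1 at 7509 ± 1075, and then by mt-Nd2 at 5359 ± 581, mt-Nd1 at 5262 ± 649 and mt-Nd5 at 5143 ± 720, which lay within each other's spread. In PBS mt-Co1, mt-Nd5 and mt-Nd2 came next, at 5616 ± 523, 5550.1 ± 697 and 4860.4 ± 423, also within each other's spread. With mt-Nd4 divided by the 502 bases outside its identical copy, its level was 8016 ± 1462 CPM per kilobase in EU and 6989 ± 1167 in PBS. Over its full length it was 2920.2 ± 533 and 2546 ± 425. With mt-Co1 divided by the 1062 bases outside its near-identical copy, its level was 10924 ± 1563 CPM per kilobase in EU, above mt-Cytb, and 8169 ± 761 in PBS, within the spread of mt-Cytb.

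Relative to one another, the abundant members differed more clearly between the pulldowns than their CPM did. The level of mt-Cytb per kilobase was 1.16, 1.15 and 1.07 times that of mt-Co1 in EU and 1.49, 1.48 and 1.46 times in PBS. The ratio of mt-Nd5 to mt-Co1 was 0.710, 0.708 and 0.641 in EU and 0.969, 0.955 and 1.04 in PBS. For mt-Nd2 over mt-Nd1 it was 1.01, 1.05 and 1.0005 in EU and 1.31, 1.31 and 1.20 in PBS. In all 3 ratios the replicates lay close together and the groups were apart. These pairs were chosen with the counts known, and the ratios are given without a test.

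The fold over PBS tended to become smaller along the genome over the 2 ribosomal RNAs and the 6 abundant protein-coding members, though not at every step. The 6 low members lie between mt-Co1 and mt-Nd4 and were left out here. With log2 folds of -3.82 to -2.40 they break this order, mt-Atp8 included, for which no copy of at least 100 bases was found. From mt-Rnr1 and mt-Rnr2 the order went through mt-Nd1, mt-Nd2, mt-Co1 and mt-Nd4 to mt-Nd5 and mt-Cytb, with log2 folds of 1.45, 1.28, 0.46, 0.14, 0.42, 0.20, -0.11 and 0.02. Over these 8 members on the same strand, Spearman's rho between genome order and log2 fold was -0.905 (Pearson's r -0.791), and over the 6 protein-coding ones -0.771. The standard errors of the 6 protein-coding folds, 0.21 to 0.24, were of the size of many steps between them. This order describes 8 members that share libraries and precursor RNA and is given without a p-value. The 8 were chosen after their values were seen.

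The 6 low protein-coding members were lower in EU than in PBS in every library. They are mt-Co2 and mt-Co3 (cytochrome c oxidase), mt-Atp6 and mt-Atp8 (ATP synthase), and mt-Nd3 and mt-Nd4l (complex I), and each stayed below 300 CPM in every library. The level of mt-Atp6 (ENSMUSG00000064357) was 30.8, 7.85 and 13.8 CPM in EU and 245, 163 and 229 CPM in PBS. That of mt-Co2 (ENSMUSG00000064354) was 32.5, 8.20 and 13.4 CPM in EU and 155, 133 and 153 CPM in PBS. In both genes EU replicate 1 was the highest EU library and still far below every PBS library. The log2 folds were -3.62 ± 0.53 and -3.04 ± 0.53 (SE; edgeR adjusted p = 0.080 each).

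The same order of groups held for the other low members. The level of mt-Co3 (ENSMUSG00000064358) was 23.9, 5.46 and 9.59 CPM in EU and 101, 118 and 148 CPM in PBS (log2 fold -3.26 ± 0.58 SE; edgeR adjusted p = 0.080). The level of mt-Nd4l (ENSMUSG00000065947) was 7.41, 1.65 and 3.26 CPM in EU and 69.4, 33.8 and 67.8 CPM in PBS (log2 fold -3.82 ± 0.75 SE; edgeR adjusted p = 0.080). For mt-Nd3 and mt-Atp8 the log2 folds were -3.03 ± 0.72 and -2.40 ± 0.90 (SE; edgeR adjusted p = 0.080 and 0.208). The lowest of them, mt-Nd3, had 18, 25 and 27 counts in EU and 8, 8 and 5 in PBS, and mt-Atp8 had 52, 58 and 84 in EU and 17, 4 and 23 in PBS. With these counts mt-Nd3 passed the low-count filter through its PBS libraries alone, so its edgeR and DESeq2 tests do not support a difference. Likewise, mt-Nd4l had 47 counts in EU replicate 2, too few for the filter there, and passed it through its PBS libraries. The tests of mt-Nd4l after that filter therefore do not support a difference either. In unscaled counts the groups were much closer than for other members: mt-Atp6 had 245, 224 and 300 in EU and 155, 77 and 179 in PBS, although the EU libraries held many times more counts in all.

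**Figure D3:**
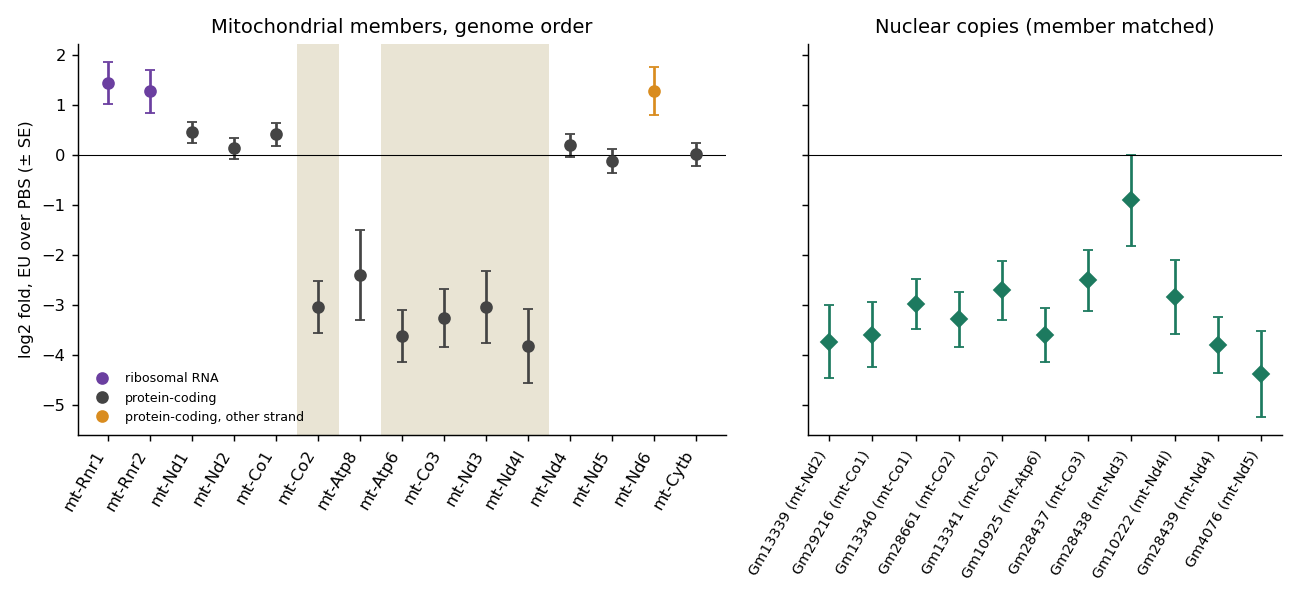
Log2 fold of EU over PBS with its standard error (edgeR), on the left for the 15 ribosomal and protein-coding members in genome order and on the right for the 11 nuclear copies, each with the member it matches; shading marks members covered by a near-identical copy over at least 90% of their length. The 6 low members lie between -3.82 and -2.40 and 10 of the 11 copies between -4.38 and -2.51, while the other 7 protein-coding members lie between -0.11 and 1.29.

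Set against the protein-coding members that have no such copy, the covered members were far lower in EU. With the 5 members covered over at least 90% of their length, their summed counts per kilobase came to 0.383%, 0.125% and 0.182% of those of the other 8 in EU and to 2.95%, 2.73% and 2.99% in PBS. That is a 12.6-fold difference of the means (0.230% ± 0.136 and 2.89% ± 0.140, SD, n = 3; exact permutation p = 0.1). With the limit at 50% of the length, mt-Nd4 joined the covered members and dominated the sum, which then was 9.04% ± 0.632 of the remaining 7 in EU and 11.95% ± 0.858 in PBS (n = 3, SD; exact permutation p = 0.1, adjusted 0.133). The limit at 90% was chosen after the data were seen. Scaled to the mitochondrial counts alone in place of all genes, mt-Co2, mt-Atp6, mt-Co3 and mt-Nd4l were called lower in EU (edgeR adjusted p = 4.0e-04, 2.9e-05, 6.0e-04 and 0.0076), at a scaling that called 0.898% of all tested genes lower. The total used there includes the ribosomal RNAs, which were higher in EU. Under it 12 of the 13 protein-coding log2 folds were negative, and the median of all tested genes was -0.40. The call of mt-Nd4l does not support a difference, because it passed the low-count filter through its PBS libraries.

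Gm10925 and Gm28661, the copies of mt-Atp6 and mt-Co2, measured levels close to those of the members they match. Gm10925, identical to mt-Atp6 over 678 bases, measured 38.8, 10.6 and 14.2 CPM in EU and 253, 188 and 321 CPM in PBS (log2 fold -3.60 ± 0.54 SE; edgeR adjusted p = 0.080). Its counts were 1.03 to 1.40 times those of mt-Atp6 across the 6 libraries. Gm28661 measured 38.6, 9.67 and 13.1 CPM in EU and 235, 194 and 161 CPM in PBS (log2 fold -3.28 ± 0.55 SE; edgeR adjusted p = 0.080), at 0.979 to 1.52 times the counts of mt-Co2. Other pairs were further apart: the counts of the copy were 0.518 to 1.37 times those of the member for Gm28437 and mt-Co3, 0.509 to 1.57 times for Gm10222 and mt-Nd4l, and 0.375 to 7.04 times for Gm28438 and mt-Nd3.

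Copies of the abundant members mt-Nd4 and mt-Co1 were far below their members in every library. Gm28439, identical to the first 876 bases of mt-Nd4, measured 27.5, 6.34 and 10.00 CPM in EU and 229, 182 and 189 CPM in PBS (log2 fold -3.79 ± 0.56 SE; edgeR adjusted p = 0.080). Gm13340, a full-length copy of mt-Co1 with 37 mismatches on chromosome 2, measured 36.8, 10.2 and 16.8 CPM in EU and 202, 131 and 165 CPM in PBS (log2 fold -2.97 ± 0.50 SE; edgeR adjusted p = 0.080). Gm29216, which matches the last 483 bases of mt-Co1 with 1 mismatch, differed by -3.59 ± 0.65 on the log2 scale (SE; edgeR adjusted p = 0.080). For Gm28437, the copy of the low member mt-Co3 and identical to it over 783 bases, the log2 fold was -2.51 ± 0.61 (SE; edgeR adjusted p = 0.080). The groups did not overlap in 10 of the 11 copies, all lower in EU (6.40% of all tested genes), and 0 of 11 passed the test over all genes. At an unadjusted p below 0.05, 10 were lower (4.26% of all tested genes), and DESeq2 called 10 lower (3.51%). Among them, Gm13339 and Gm4076, which match parts of mt-Nd2 and mt-Nd5, had too few EU counts for the low-count filter. They passed it through their PBS libraries, so their tests do not support a difference. The exception was Gm28438, the copy of mt-Nd3, at 8.67, 6.16 and 8.07 CPM in EU and 6.31, 6.33 and 29.4 CPM in PBS.

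Summed, the 11 copies held 224, 64.3 and 91.1 CPM in EU and 1332, 988 and 1213 CPM in PBS, 9.31 times more in PBS by the means (127 ± 85.6 and 1178 ± 175 CPM, SD, n = 3; exact permutation p = 0.1). The 6 low members held 103, 26.1 and 45.1 CPM in EU and 609, 473 and 634 CPM in PBS, 9.83 times more in PBS. In both sums EU replicate 1 was the highest EU library and EU replicate 2 the lowest. The ribosomal RNAs had the same order, and so did the sum of the 7 other protein-coding members (51748, 39305 and 46755 CPM in EU replicates 1 to 3). What part the assignment of reads between members and copies has in these values was not tested.

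**Figure D4:**
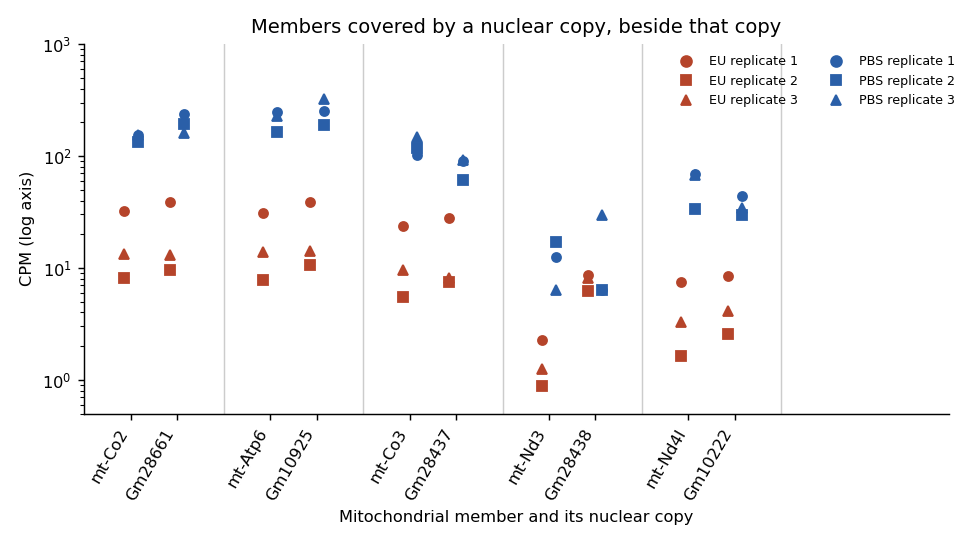
CPM (log axis) of the 5 members covered by a near-identical nuclear copy, each beside that copy, in every library. In every gene shown but Gm28438, all PBS libraries lie above all EU libraries, and copy counts run from 0.979 to 1.52 times those of the member for mt-Co2 and from 0.375 to 7.04 times for mt-Nd3.

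The protein-coding gene on the other strand, mt-Nd6 (ENSMUSG00000064368, a complex I subunit), was higher in EU in every library. It measured 707, 626 and 751 CPM in EU and 511, 106 and 234 CPM in PBS. The EU libraries lay close together, while PBS replicate 1 stood well above the other 2 PBS libraries. The log2 fold was 1.29 ± 0.48 (SE; edgeR adjusted p = 0.208). As a share of protein-coding mitochondrial counts it was 1.36%, 1.59% and 1.60% in EU and 1.17%, 0.291% and 0.529% in PBS (1.52% ± 0.135 and 0.664% ± 0.456, SD, n = 3; exact permutation p = 0.1, adjusted 0.133). The ratio of the means was 2.29. Leaving out single libraries gave 1.79 to 3.71, the highest without PBS replicate 1. Counts of this gene are uncertain, because the strand setting of the counting is not given and mt-Nd6 lies opposite other mitochondrial RNA, overlapping the annotated mt-Nd5 by 14 bases.

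EU is built in at uridine, and mt-Nd6 has the highest uridine content of the longer members, at 43.7% against 26.4% to 32.8% in the other 14. The first 60 bases of mt-Nd6 and of mt-Cytb show the contrast, with T, uridine in the RNA, in capitals.
mt-Nd6: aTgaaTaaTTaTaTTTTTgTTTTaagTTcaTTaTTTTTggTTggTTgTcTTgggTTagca
mt-Cytb: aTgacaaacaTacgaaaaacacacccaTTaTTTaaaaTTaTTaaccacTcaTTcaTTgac
These stretches hold 32 and 16 T. Between uridine content and log2 fold, Spearman's rho was -0.143 and Pearson's r 0.108 over all 15 longer members, and 0.017 and 0.261 over the 9 left without the 5 covered members and mt-Atp8. The part of uridine content in the folds was not tested. The ribosomal RNAs had the lowest uridine content, 26.4% each.

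Transfer RNAs were scarce in both pulldowns. The 22 genes, 59 to 75 bases long, held 199, 732 and 631 counts in EU replicates 1 to 3 and 0, 5 and 8 counts in PBS replicates 1 to 3. As a share of library counts this was 0.00208%, 0.00276% and 0.00268% in EU and 0%, 0.00121% and 0.00110% in PBS, and the groups did not overlap (exact permutation p = 0.1, adjusted 0.133). As a share of mitochondrial counts it was 0.0203%, 0.0400% and 0.0309% in EU and 0%, 0.0217% and 0.0159% in PBS, and the groups overlapped (exact permutation p = 0.2). Of the 22, 20 had a count in some EU library and 2, mt-Tm and mt-Td, in some PBS library. The EU libraries were also deeper, and thinned to 413181 counts, they held 10, 11 and 17 transfer RNA counts in 6, 4 and 9 genes, against 0, 5 and 5 counts in 0, 2 and 1 genes in PBS. No count in any library was found for mt-Tf and mt-Tk, the transfer RNAs for phenylalanine and lysine.

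The 4 transfer RNAs that passed the low-count filter are shown with T, uridine in the RNA, in capitals, to set beside their values. They decode leucine (mt-Tl1), proline (mt-Tp), tryptophan (mt-Tw) and methionine (mt-Tm).
mt-Tl1: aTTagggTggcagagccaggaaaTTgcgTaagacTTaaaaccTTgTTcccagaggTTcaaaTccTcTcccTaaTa
mt-Tp: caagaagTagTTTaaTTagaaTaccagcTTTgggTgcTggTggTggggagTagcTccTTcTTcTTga
mt-Tw: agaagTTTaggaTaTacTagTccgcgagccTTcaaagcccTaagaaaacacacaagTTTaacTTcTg
mt-Tm: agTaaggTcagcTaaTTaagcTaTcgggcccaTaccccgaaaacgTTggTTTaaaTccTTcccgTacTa
The most abundant, mt-Tl1, had 58, 278 and 197 counts in EU and 0 in each PBS library. At 8.69 ± 1.26 CPM in EU (SD, n = 3) it was at least 5.47-fold higher than 3 counts over the PBS group. The same floor gave at least 2.98-fold for mt-Tp, with 24, 151 and 128 counts in EU, and at least 1.58-fold for mt-Tw, with 23, 61 and 55. These 3 passed the filter through their EU counts alone, so their tests (edgeR adjusted p = 0.080 each) and the calls of mt-Tl1 by DESeq2 and limma-voom do not support a difference. The exception, mt-Tm, had 37, 61 and 63 counts in EU and 0, 4 and 8 in PBS, and its groups overlapped (edgeR adjusted p = 0.694).

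The remaining 18 transfer RNAs had between 0 and 75 counts in a library and summed to 426 counts over the EU and 1 over the PBS libraries. The highest were mt-Tq (glutamine), with 14, 70 and 75 EU counts, and mt-Ti (isoleucine), with 26, 34 and 34. Transfer RNAs from the strand that carries mt-Nd6 number 8, and they held 548 of the 1562 EU counts and 0 of the 13 PBS counts. The one that passed the filter among them was mt-Tp.

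Nuclear genes that transcribe, process, translate or degrade mitochondrial RNA, or that copy or maintain mitochondrial DNA (such as Polg, Twnk, Ssbp1 and Top1mt), were measured in the same pulldowns. Of 60 such genes 58 were tested and 0 passed over all genes, with 29 log2 folds positive and 29 negative and a median of -0.01 (0.15 for all tested genes). At an unadjusted p below 0.05, 7 of the 58 passed, 5 of them higher in EU, against 17.2% of all tested genes, and DESeq2 called 2 higher and 1 lower, against 4.06% and 3.51%. These counts are no higher than the shares over all tested genes. The mitochondrial RNA polymerase Polrmt measured 24.1, 25.7 and 25.3 CPM in EU and 12.6, 0 and 52.4 CPM in PBS. Tfam, which packages mitochondrial DNA and starts its transcription, measured 14.1, 19.8 and 16.3 CPM in EU and 12.6, 33.8 and 16.6 CPM in PBS. Lrpprc, which stabilises mitochondrial messenger RNAs, measured 57.2, 73.6 and 63.8 CPM in EU and 50.5, 27.4 and 85.7 CPM in PBS. In all 3 the PBS libraries scattered widely around the EU values.

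The 6 genes of this list with the smallest p included 4 that were higher in EU. Supv3l1, a helicase of mitochondrial RNA decay, measured 25.8, 24.6 and 25.9 CPM in EU and had no PBS count, where 3 counts over the PBS group were equal to 1.59 CPM. The mitochondrial topoisomerase Top1mt and the ribosomal RNA methyltransferase Tfb1m also had no PBS count, and were at least 2.21-fold and 2.35-fold higher than that floor. These 3 genes passed the low-count filter through their EU counts alone, so their tests (edgeR adjusted p = 0.080, 0.080 and 0.089) do not support a difference. The single-stranded DNA-binding protein gene Ssbp1 measured 16.4 ± 0.895 CPM in EU and had 1 count over all PBS libraries (SD, n = 3; edgeR adjusted p = 0.088). Ssbp1 too passed the filter through its EU counts alone, so its test does not support a difference. Lower in EU were Slirp, the partner of Lrpprc, at 7.24 ± 0.287 and 32.3 ± 20.8 CPM, and Mterf1a, a transcription termination factor, at 1.89 ± 0.346 and 8.53 ± 5.86 CPM (SD, n = 3; edgeR adjusted p = 0.158 and 0.124). Mterf1a had only 2, 7 and 6 counts in PBS replicates 1 to 3. It passed the filter through these alone, so its test does not support a difference.

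Other settings of edgeR moved the number of members called. With the replicate number as a block, mt-Rnr1, mt-Rnr2 and mt-Nd6 were called higher and mt-Co2, mt-Atp6, mt-Co3 and mt-Nd4l lower (1.19% and 0.393% of all tested genes). Here the call of mt-Nd4l does not support a difference, because it passed the low-count filter through its PBS libraries. Without a low-count filter, mt-Rnr1, mt-Rnr2, mt-Nd1 and mt-Co1 were called higher and the same 4 genes lower (0.437% and 1.21%). Library size alone as the scaling called mt-Co2, mt-Atp6 and mt-Co3 lower (0.321%), and leaving out EU replicate 1 called mt-Co2 and mt-Atp6 lower (0.127%). Size factors of DESeq2 within edgeR called 0 members (0.0561% of all tested genes), as did leaving out EU replicate 2 (0.0241%), EU replicate 3 (0.0233%) or any PBS library (0%).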

How the data were processed

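RNA from EU and PBS pulldowns was measured in 6 libraries, grouped by their titles. The authors deposited 1 table of whole-number counts per Ensembl gene ID, without normalization. Build GRCm39 and the tools featureCounts 2.0.1, STAR 2.7.10b, UMI-tools 1.1.2 and bcl2fastq 2.20.0 come from the submitters' processing notes, which give no roles. The strand setting and the rule for reads that match several places were not given in the sources used here. GENCODE M21, of an earlier build, supplied symbols (52083 of 55416 IDs), types, strand, order and transcript sequences, and no coordinates are given. Nuclear copies were found with BLAST 2.17.0 against annotated nuclear transcripts, since no genome was used.

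The main test was edgeR 4.0.16 (R 4.3.3) with TMM factors, filterByExpr and group as the only term, adjusted by Benjamini-Hochberg over 12477 genes at 0.05; it was tested on simulated data. Exact two-sided permutation tests served for single values (scipy 1.17.1). Members, lists and tests were chosen with earlier results of these data known. Named were all ribosomal and protein-coding members, transfer RNAs that passed the filter, 6 copies with the highest mean CPM, and of the nuclear list the 6 with the smallest p plus Polrmt, Tfam and Lrpprc. Chosen after their values were seen were mt-Tq, mt-Ti, Gm28438, Gm13341, Gm13339, Gm4076, the ratios between members and the 8 members set in genome order. The list of nuclear genes was written from textbook knowledge. Whether replicates were separate cultures is not in the labels, and p-values then cover only the spread between the libraries measured, which could be technical. Replicates of a group differed by far more than sampling noise (chi-square per degree of freedom 13.0 to 119). Intervals and floors cover counting error only. Alternatives were DESeq2 1.42.0, limma-voom (limma 3.58.1), other scalings and filters, the replicate number as a block, single libraries left out, thinned libraries, and other limits for a copy.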

Additional observations from a re-analysis of the deposited data

How the results depend on the processing

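The number of members called, 0 in the main test, was 7 (3 higher, 4 lower) with the replicate block, 3 with library size alone, 8 without a low-count filter, 8 with DESeq2, 2 with limma-voom and 4 when scaled to the mitochondrial counts; without single libraries it was 0 to 2, the 2 being mt-Co2 and mt-Atp6 without EU replicate 1. For the nuclear copies it was 6 with the block, 5 with library size alone, 7 without a filter, 10 with DESeq2, 3 with limma-voom and 0 to 5 without single libraries, all lower, and for the nuclear list 1 without a filter, 3 with DESeq2 and 1 with limma-voom. Equal replicate numbers are not said to be pairs: deviations of equal numbers correlated at 0.0878, 0.0642 and 0.0371, and each library correlated best with its own number. Over all genes the block raised the calls from 3 to 197. The mean number of members with a count in EU fell from 31.0 to 20.0 when libraries were thinned. Of 400 single-gene values under alternatives for 34 genes, 313 kept direction and side of the threshold, 69 passed it and 18 changed sign. These were mt-Cytb with DESeq2 size factors, library size alone, DESeq2, limma-voom and mitochondrial scaling (-0.077, -0.16, -0.077, -0.028 and -0.58) and without single libraries (-0.13 to 0.13), mt-Nd2 with library size alone and mitochondrial scaling (-0.039 and -0.45), and mt-Co1, mt-Nd1 and mt-Nd4 with mitochondrial scaling (-0.18, -0.14 and -0.41). For mt-Nd5 the log2 fold was 0.032 without a filter and -0.26 to 0.030 without single libraries, for Polrmt -0.34 to 1.93, for Tfam -0.51 to 0.25 and for Lrpprc -0.017 to 0.78. The median log2 fold of all genes was 0.15 with TMM factors, -0.01 with library size alone and -0.40 with mitochondrial scaling. The 5 summed ratios kept their direction under every alternative run; that of covered to other members, EU over PBS, was 0.756, with copies at 95% identity 0.924 and with copies over 90% of the length 0.0795. PBS depth limits all transfer RNA values.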
